A study of Mus musculus with 9 samples.

Results

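Lgr5, Ascl2, Olfm4, Smoc2, Tnfrsf19, Rgmb, Cdca7, Slc12a2, Msi1 and Lrig1 are genes commonly used to mark the stem cells at the base of the intestinal crypt. They were chosen by name, as the identifiers of the count table that GENCODE M21 assigns to these 10 symbols, and make up 10 of its 57180 identifiers and 10 of the 13405 genes with enough counts to be tested. All 10 passed that filter. RNA-seq counts were available for 9 libraries of small intestinal cells of the mouse, sorted for green fluorescent protein (GFP) expressed from Lgr5. The mice given tamoxifen carried Lgr5-EGFP-CreERT2, which makes GFP and a tamoxifen-activated Cre recombinase in Lgr5-expressing cells, and loxP-flanked Kansl1 (Kansl1 f/f). KANSL1 is a subunit of the NSL histone acetyltransferase complex.

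The KO day 3 group (3 libraries) came from such mice after 3 days of daily tamoxifen, and the KO day 4 group (3 libraries) after 4 days. The control group (3 libraries) is labelled KANSL1-WT and received corn oil, and was sorted for GFP in the same way, while the labels do not spell out its Kansl1 alleles. Deletion and tamoxifen went together, so their effects on the markers cannot be told apart, and the KO groups differ in tamoxifen doses as well as in time. Cre is made only in Lgr5-expressing cells, and the sort selects on the same promoter, so the Lgr5 level is not independent of how the cells were collected. Age, sex and whether the replicates were separate animals are not given in the labels, so p-values here measure only how far these libraries differed, a difference that may be technical.

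Crypt base stem cells divide throughout life and supply all cell types of the intestinal epithelium. They depend on Wnt signals from neighbouring Paneth and stromal cells, which R-spondins amplify through LGR receptors, and on low BMP and active Notch signalling. The markers fall into several roles: LGR5 is an R-spondin receptor, ASCL2 is a transcription factor downstream of Wnt that maintains the stem cell programme, OLFM4 and SMOC2 are secreted, TNFRSF19 and RGMB are membrane proteins of the TNF receptor and BMP pathways, CDCA7 is nuclear, SLC12A2 is an ion cotransporter, MSI1 binds RNA and LRIG1 restrains ERBB receptors.

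Stretches before annotated starts of Ascl2, Olfm4 and Tnfrsf19 are shown because these members had the largest differences at KO day 4. Those shown for Olfm4 and Tnfrsf19 lie inside the span that GENCODE M21 gives each gene. The other Tnfrsf19 window, chr14:61046856-61047105, lies upstream of that span and is not shown. RefSeq's GRCm38.p6 table held 9 start site windows for 6 of the 10 members, which leaves out Lgr5, Smoc2, Msi1 and Slc12a2. Each sequence is the 250 bases before an annotated start, 5′ to 3′ on the gene's strand, with capitals marking the TCF/LEF core CTTTGA (on the other strand TCAAAG) and the E-box CAGCTG.
Ascl2, chr7:142969265-142969514, minus strand: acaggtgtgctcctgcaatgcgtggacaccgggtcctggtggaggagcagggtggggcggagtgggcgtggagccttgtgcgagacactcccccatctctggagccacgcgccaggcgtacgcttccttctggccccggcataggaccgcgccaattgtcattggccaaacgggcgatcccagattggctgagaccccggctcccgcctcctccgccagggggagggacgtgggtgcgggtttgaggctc
Olfm4, chr14:80000052-80000301, plus strand: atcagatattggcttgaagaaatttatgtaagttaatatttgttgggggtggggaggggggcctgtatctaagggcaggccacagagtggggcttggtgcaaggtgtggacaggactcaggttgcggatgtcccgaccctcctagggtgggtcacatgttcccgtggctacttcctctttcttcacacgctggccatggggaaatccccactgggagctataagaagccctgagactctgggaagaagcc
Tnfrsf19, second of its annotated starts, chr14:61037988-61038237, minus strand: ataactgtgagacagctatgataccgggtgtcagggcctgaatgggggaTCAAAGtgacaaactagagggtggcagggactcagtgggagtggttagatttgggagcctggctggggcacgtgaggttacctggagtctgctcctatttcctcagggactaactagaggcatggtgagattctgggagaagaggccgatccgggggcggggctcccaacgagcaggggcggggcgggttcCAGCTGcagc
CTTTGA was found on either strand in 13.83% of the 32851 windows of this length in the table, and CAGCTG, which reads the same on both strands, in 13%. Among the members' 9 windows, the second Tnfrsf19 window held each once, TCAAAG starting 201 bases and CAGCTG 10 bases before the start, and the other 8 held neither. GC content was 67.6% for Ascl2, 54.0% for Olfm4 and 59.2% for this Tnfrsf19 window, against a median of 52.4% over all windows. Ascl2's window held 19 CpG dinucleotides, Olfm4's 4 and Tnfrsf19's 8, against a median of 6. These matches describe the sequence and were not tested as binding sites.

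The libraries held 8400458 to 21484679 counts. Transcripts of the mitochondrial genome took 16.4% to 25.8% of counts in controls, 19.0% to 32.4% in the KO day 3 group and 66.9% to 72.1% in that of KO day 4, which left 3115374 to 5614186 counts of nuclear genes per KO day 4 library against 9996919 to 13980785 in controls. Within the groups, a library of each KO time stood apart: KO day 3 replicate 1 correlated with its group at 0.914 and 0.910 across genes (log2 level), and KO day 4 replicate 3 at 0.857 and 0.863, against 0.969 to 0.973 between controls. Kansl1, the targeted gene, was at 4.46, 11.4 and 9.83 CPM (counts per 1000000 counts, scaled by TMM normalization) in the controls, 2.81, 2.99 and 2.55 at KO day 3, and 2.93, 5.09 and 8.96 at KO day 4. Its KO day 3 libraries lay below the controls, while those labelled replicates 2 and 3 of KO day 4 lay within the control range. Neither difference passed the test (log2 change -1.62 at day 3, edgeR adjusted p = 0.12, and -0.63 at day 4, edgeR adjusted p = 0.34), and counts over the whole gene can include reads outside the deleted part, so replicates are named below as the labels name them.

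In controls, all 10 markers were expressed, and Olfm4 exceeded the others on the scale of CPM per kilobase of merged exons. Olfm4 was at 2923 ± 79.8 CPM per kb (SD, n = 3), followed by Cdca7 at 73.7 ± 1.03, Slc12a2 at 54.7 ± 2.38 and Ascl2 at 37.1 ± 4.85. Smoc2 was at 30.1 ± 1.43 CPM per kb, Rgmb at 11.7 ± 2.16, Lrig1 at 8.74 ± 3.00 and Tnfrsf19 at 6.58 ± 0.69. Msi1, at 3.47 ± 0.22 CPM per kb, and Lgr5, at 3.40 ± 0.43, were the lowest and did not differ beyond their spread. The same held for Rgmb and Lrig1, and for Lrig1 and Tnfrsf19. Per kilobase of the principal transcript, Smoc2 moved above Ascl2 (73.9 against 37.5 CPM per kb) and Lgr5 above Msi1 (7.40 against 6.43), so these orders depend on the length used.

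At KO day 4, 6 of the 10 markers were lower than in controls by edgeR's quasi-likelihood test with Benjamini-Hochberg adjustment over all tested genes: Ascl2, Tnfrsf19, Olfm4, Slc12a2, Smoc2 and Cdca7. None was higher. Across all tested genes 11.5% were called lower and 11.1% higher, 22.5% in all. The median log2 change of the members was -1.19, from -1.52 for Ascl2 to 0.03 for Msi1, against a median of -0.06 over all tested genes. For 8 members every KO day 4 library lay below every control library, an arrangement found in 26.4% of all tested genes. In bulk RNA, fewer stem cells in the sort and less of these transcripts per cell cannot be told apart.

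**Figure D1:**
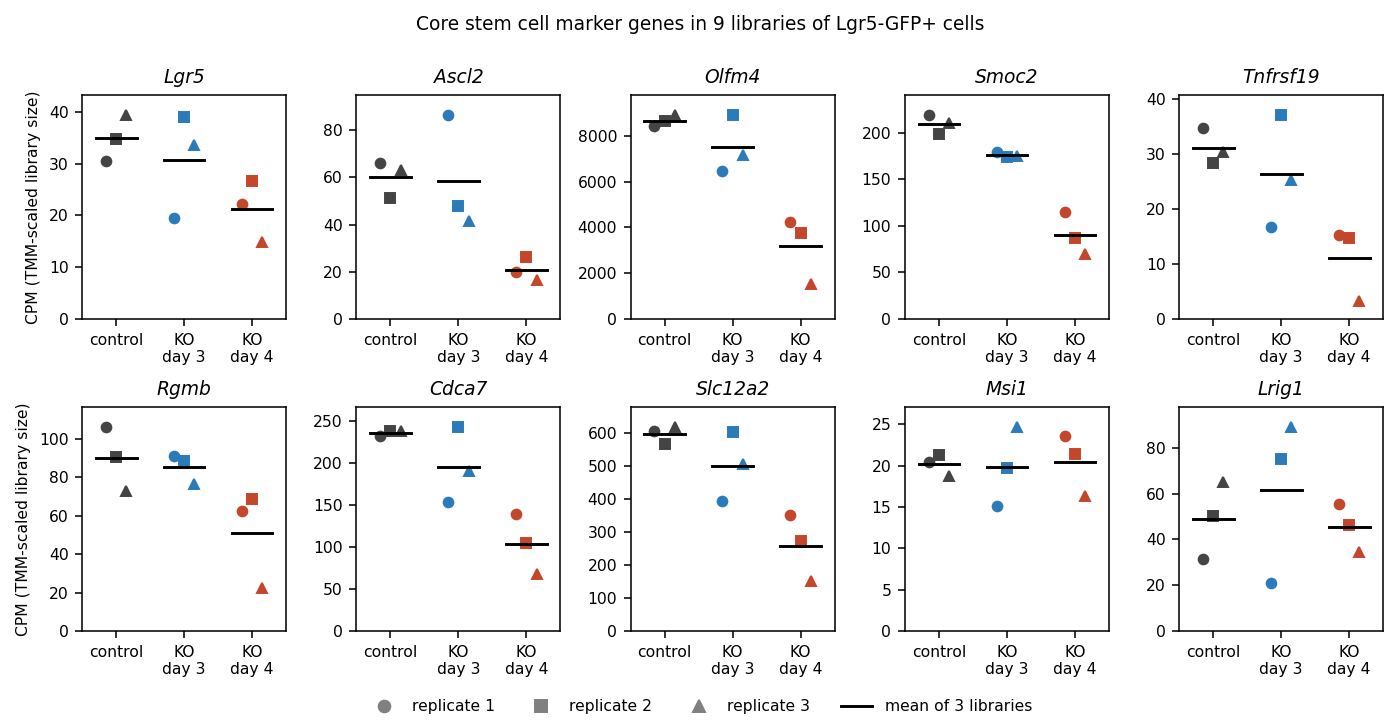
Level of each core marker in every library, in CPM of TMM-scaled library size (linear axes from 0), for control, KO day 3 and KO day 4. Points are libraries, shaped by replicate, and bars are means of 3 libraries. Olfm4 runs from 8431 to 8903 in controls and from 1538 to 4219 at KO day 4, while Msi1 and Lrig1 overlap between the groups.

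Lgr5 (ENSMUSG00000020140, chromosome 10, 115450311 to 115587780, GRCm38, minus strand), the R-spondin receptor, was at 30.5, 34.8 and 39.3 CPM in the 3 controls, 19.4, 38.9 and 33.6 at KO day 3, and 22.3, 26.7 and 14.8 at KO day 4. All KO day 4 libraries lay below the controls, while KO day 3 replicate 1 lay below them and the other KO day 3 libraries among them. The difference at KO day 4 did not pass the test (log2 change -0.71, SE 0.28, 95% interval -1.26 to -0.16, edgeR adjusted p = 0.092). It passed without KO day 3 replicate 1 (-0.71, edgeR adjusted p = 0.036) and with no filter on low counts (-0.80, edgeR adjusted p = 0.044), and without KO day 4 replicate 3 it was -0.52 (edgeR adjusted p = 0.22).

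Ascl2 (ENSMUSG00000009248, chromosome 7, 142966829 to 142969264, minus strand), the transcription factor, was at 66.2, 51.3 and 63.2 CPM in controls, 86.4, 47.9 and 41.7 at KO day 3 and 20.0, 26.2 and 16.4 at KO day 4. Every KO day 4 library was below the lowest of the other 6, and KO day 3 replicate 1 was above all controls. The change at KO day 4 was 2.88-fold (log2 change -1.52, SE 0.28, edgeR adjusted p = 0.0039), within 1 SE of the values of Tnfrsf19 and Olfm4, so these members cannot be ranked. Without KO day 4 replicate 3 it was -1.39 (edgeR adjusted p = 0.014).

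At KO day 4, 11.5% of all tested genes were called lower and 11.1% higher. The list of factors that pair with or oppose ASCL-type proteins had 7 of its 9 genes tested at KO day 4, of which 2 were lower and none higher (median log2 change 0.18). The lower ones were Id1 (log2 change -2.22, SE 0.39, edgeR adjusted p = 0.0030) and Id3 (-0.81, SE 0.26, edgeR adjusted p = 0.048), inhibitors of helix-loop-helix factors and also known as targets of BMP signalling. The call of Id3 was lost in 7 of the 9 fits that left out 1 library (edgeR adjusted p from 0.055 to 0.16), and held without KO day 3 replicate 1 and without KO day 4 replicate 2. Id1 had a mean of 87.4 ± 30.8 CPM in controls and of 18.6 ± 9.61 in the KO day 4 group (SD, n = 3). Of the Notch receptors, ligands and effectors, 11 of 13 genes were tested, 1 was lower and none higher. That gene was Notch1, a receptor active in stem cells, at 29.6 ± 5.93 CPM in controls and 11.1 ± 2.27 at KO day 4 (log2 change -1.41, SE 0.25, edgeR adjusted p = 0.0034).

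Olfm4 (ENSMUSG00000022026, chromosome 14, 79984081 to 80023139, plus strand) encodes the secreted glycoprotein olfactomedin 4, whose transcript is very abundant in crypt base cells. It was at 8431, 8643 and 8903 CPM in controls, 6461, 8900 and 7155 at KO day 3 and 4219, 3775 and 1538 at KO day 4. The controls were close together, and all KO day 4 libraries were below every other library. Olfm4 fell 2.73-fold at KO day 4 (log2 change -1.45, SE 0.33, edgeR adjusted p = 0.010), and without KO day 4 replicate 3 the value was -1.12 (edgeR adjusted p = 0.012). Its share of all counts of nuclear genes was 1.83% ± 0.18 in controls, 1.36% ± 0.25 in the KO day 3 group and 0.48% ± 0.22 in the KO day 4 group (SD, n = 3). The gene Gm6999 overlaps its exons by 153 bases and had 9 counts in all libraries together.

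Smoc2 (ENSMUSG00000023886, chromosome 17, 14279506 to 14404790, plus strand), a secreted calcium-binding matrix protein, was at 219, 199 and 210 CPM in controls, 179, 174 and 175 at KO day 3 and 115, 86.5 and 69.9 at KO day 4. The 3 groups did not overlap, and Smoc2 was the only member whose KO day 3 libraries were all below the controls. It had the smallest adjusted p of the members at KO day 4 (log2 change -1.21, SE 0.18, edgeR adjusted p = 0.0013). Of 11 relatives of Smoc2 and Olfm4, 2 passed the filter on low counts, and neither was called: Olfm1 was at 1.19 ± 0.64 CPM in controls and 2.47 ± 1.93 at KO day 4, and Smoc1 at 0.49 ± 0.32 and 0.21 ± 0.37 (SD, n = 3).

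Tnfrsf19 (ENSMUSG00000060548, chromosome 14, 60963875 to 61046490, minus strand), also known as TROY, is a TNF receptor family member and Wnt target. It was at 34.8, 28.4 and 30.4 CPM in controls, 16.8, 37.1 and 25.3 at KO day 3, and 15.4, 14.8 and 3.36 at KO day 4. The last value rests on 15 counts. The groups of KO day 4 and control did not overlap, and the fall passed the test (log2 change -1.45, SE 0.44, edgeR adjusted p = 0.035). This call was near the threshold: it was lost without control replicate 1, 2 or 3 (edgeR adjusted p = 0.095, 0.072 and 0.077) and without KO day 4 replicate 2 (edgeR adjusted p = 0.054), and it held without KO day 4 replicate 3 (log2 change -1.05, edgeR adjusted p = 0.039). The shares of all tested genes called at KO day 4 were 11.5% lower and 11.1% higher. Of 13 tested relatives and adaptors, none was lower and 3 were higher. These were Tnfrsf12a, the TWEAK receptor (4.06 ± 0.11 CPM in controls and 19.2 ± 1.16 at KO day 4, log2 change 2.24, edgeR adjusted p = 0.0011), Eda2r, the receptor of ectodysplasin A2 (log2 change 2.64, edgeR adjusted p = 0.0062), and Traf3, an adaptor (2.78, edgeR adjusted p = 0.0078). Scaled by library size alone, the 3 kept their direction and were not called (edgeR adjusted p = 0.36, 0.19 and 0.22).

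Rgmb (ENSMUSG00000048027, chromosome 17, 15803188 to 15831039, minus strand), a BMP co-receptor, was at 106, 90.5 and 73.0 CPM in controls, 91.3, 88.8 and 76.4 at KO day 3 and 62.2, 68.8 and 22.4 at KO day 4. All KO day 4 libraries were below the controls, with replicate 3 far below the other libraries of its group. The difference did not pass the test (log2 change -0.80, SE 0.32, 95% interval -1.44 to -0.17, edgeR adjusted p = 0.095), and it was -0.46 without KO day 4 replicate 3 (edgeR adjusted p = 0.10). It passed with no filter on low counts (-0.90, edgeR adjusted p = 0.019) and with the replicate block (-0.89, edgeR adjusted p = 0.041). Calls at KO day 4 over all tested genes were 11.5% lower and 11.1% higher. Among 17 tested genes for BMP ligands, receptors and SMADs, 2 were lower at KO day 4, the target genes Id1 and Id3 given above, and 1 was higher. That gene was Bmp7, a ligand, at 18.0 ± 0.66 CPM in controls and 29.7 ± 2.69 at KO day 4 (log2 change 0.72, SE 0.17, edgeR adjusted p = 0.013), which turned to -1.18 with scaling by library size alone. Its call was lost without control replicate 2 or 3 (edgeR adjusted p = 0.066 and 0.051).

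**Figure D2:**
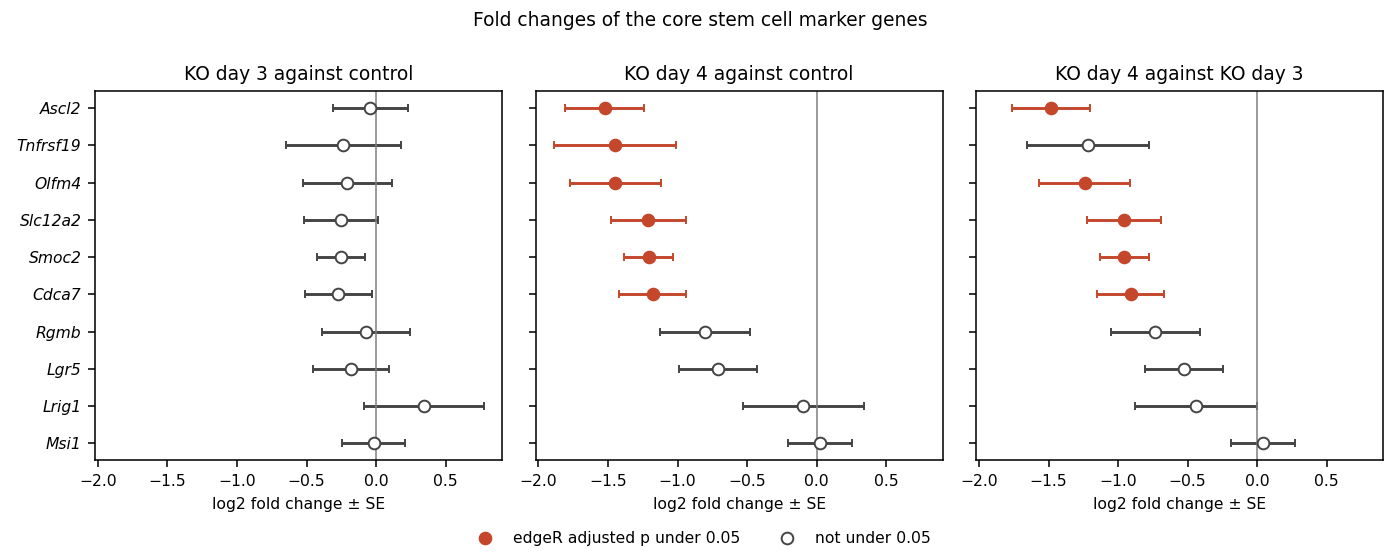
Log2 change (x axis) of each core marker in the 3 comparisons, with bars of 1 SE. Filled points passed edgeR's test at an adjusted p under 0.05: none at KO day 3, 6 at KO day 4 against control and 5 at KO day 4 against KO day 3. Scaled by library size alone, all 10 were lower at KO day 4 than in controls, but so were 10769 of all 13405 tested genes.

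Cdca7 (ENSMUSG00000055612, chromosome 2, 72476159 to 72486893, plus strand) encodes a nuclear protein that works with the chromatin remodeller HELLS in keeping up DNA methylation. It was at 232, 238 and 238 CPM in controls, 153, 243 and 190 at KO day 3 and 139, 104 and 68.3 at KO day 4. The controls differed little, and the 3 KO day 4 libraries were the lowest of the 9. Cdca7 fell at KO day 4 (log2 change -1.18, SE 0.24, edgeR adjusted p = 0.0066). Of the 8 genes listed as its partners and relatives, 1 was lower and 1 higher, against 11.5% and 11.1% of all tested genes. Its paralog Cdca7l fell from 35.9 ± 2.15 to 18.7 ± 6.29 CPM (log2 change -0.93, SE 0.23, edgeR adjusted p = 0.016), a call lost without control replicate 1 or 2 or KO day 4 replicate 2 (edgeR adjusted p = 0.056, 0.054 and 0.053). Dnmt3a, a DNA methyltransferase, rose from 7.83 ± 0.64 to 13.4 ± 2.53 CPM (log2 change 0.77, SE 0.24, edgeR adjusted p = 0.040), and had -1.15 with scaling by library size alone. That call was lost in 7 of the 9 fits that left out 1 library (edgeR adjusted p from 0.055 to 0.14), and held without KO day 3 replicate 1 and without KO day 4 replicate 1. Hells itself was at 55.1 ± 10.7 CPM in controls and 61.1 ± 6.68 at KO day 4 and was not called (edgeR adjusted p = 0.60).

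Slc12a2 (ENSMUSG00000024597, chromosome 18, 57878678 to 57946821, plus strand), the basolateral sodium-potassium-chloride cotransporter of secreting crypt cells, was at 605, 568 and 618 CPM in controls, 394, 603 and 507 at KO day 3 and 350, 272 and 150.0 at KO day 4. The KO day 4 libraries were below all others, in the same order as for Olfm4. It fell at KO day 4 (log2 change -1.21, SE 0.27, edgeR adjusted p = 0.0094). Of 11 tested genes for epithelial chloride secretion, 4 were lower and 1 was higher, against 11.5% and 11.1% of all tested genes. The potassium channel gene Kcnq1 fell from 216 ± 24.6 to 69.0 ± 17.2 CPM (log2 change -1.64, SE 0.20, edgeR adjusted p = 5.7e-04). Atp1b1, a subunit of the sodium pump, fell by 0.96 on the log2 scale (edgeR adjusted p = 0.024). Wnk1, a kinase that regulates such cotransporters, rose (log2 change 0.90, SE 0.24, edgeR adjusted p = 0.019), and had -1.0 with scaling by library size alone. Without control replicate 1, 2 or 3 its call was lost (edgeR adjusted p = 0.059, 0.067 and 0.082), as was that of Atp1b1 without control replicate 1 or 2 (0.082 and 0.076 by edgeR, adjusted).

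Msi1 (ENSMUSG00000054256, chromosome 5, 115429599 to 115455698, plus strand), the RNA-binding protein Musashi 1, was at 20.5, 21.2 and 18.7 CPM in controls, 15.2, 19.7 and 24.7 at KO day 3 and 23.6, 21.5 and 16.4 at KO day 4. The 3 groups overlapped. The log2 change at KO day 4 was 0.03 with a 95% interval of -0.42 to 0.48 (SE 0.23, edgeR adjusted p = 0.95), an interval that does not reach the values of the 6 members that fell, and it was -1.85 with scaling by library size alone. Its relative Msi2 was at 20.6 ± 0.19 CPM in controls and 24.3 ± 4.65 at KO day 4, and Numb, an mRNA it binds, at 9.76 ± 1.41 and 12.5 ± 2.85 (SD, n = 3). Neither was called (edgeR adjusted p = 0.46 and 0.49).

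Lrig1 (ENSMUSG00000030029, chromosome 6, 94604529 to 94700158, minus strand), a transmembrane inhibitor of ERBB receptors, varied most between controls, at 31.5, 50.03 and 65.0 CPM, and was at 21.0, 75.1 and 89.0 at KO day 3 and 55.6, 46.4 and 34.5 at KO day 4. The groups overlapped, and the replicates of KO day 3 spanned more than the groups' means. Its log2 change at KO day 4 was -0.10 with a 95% interval of -0.95 to 0.76 (SE 0.44, edgeR adjusted p = 0.90), an interval that also holds the values of Lgr5 and Rgmb. Lrig1 shares 144 bases with Slc25a26, so some reads could belong to either.

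Of 17 tested genes for ERBB receptors, ligands and feedback inhibitors, 2 were lower and 7 higher at KO day 4. The shares over all tested genes were 11.5% lower and 11.1% higher. The receptor Erbb2 fell from 62.4 ± 8.27 to 15.2 ± 7.20 CPM (log2 change -2.01, SE 0.31, edgeR adjusted p = 0.0017), and Erbb3 from 75.8 ± 15.8 to 26.3 ± 7.99 (-1.52, SE 0.30, edgeR adjusted p = 0.0052). Ligands were among the ERBB genes called higher. Areg rose from 1.12 ± 0.67 to 21.5 ± 6.17 CPM (log2 change 4.23, SE 0.70, edgeR adjusted p = 0.0024) and Ereg from 0.15 ± 0.09 to 5.24 ± 3.34 (5.06, SE 0.87, edgeR adjusted p = 0.0028).

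At KO day 3, none of the 10 members passed edgeR's test in either direction, where 0.298% of all tested genes were called lower and 0.142% higher. No member reached an unadjusted p under 0.05 by edgeR, and none was called by DESeq2 or limma. The median log2 change was -0.19 (from -0.27 for Cdca7 to 0.34 for Lrig1), against -0.02 over all tested genes. For Smoc2 the groups did not overlap (log2 change -0.25, SE 0.17, edgeR adjusted p = 0.53), as for 18% of all tested genes in that direction. KO day 3 replicate 1 was the lowest library of its group for 7 members and the highest for Ascl2, Smoc2 and Rgmb. Without it the log2 change of Lgr5 was 0.06.

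Between KO day 3 and KO day 4, 5 members fell: Ascl2 (log2 change -1.48, SE 0.28, edgeR adjusted p = 0.0094), Olfm4 (-1.24, SE 0.32, edgeR adjusted p = 0.032), Slc12a2 (-0.96, SE 0.27, edgeR adjusted p = 0.039), Smoc2 (-0.96, SE 0.18, edgeR adjusted p = 0.0084) and Cdca7 (-0.91, SE 0.24, edgeR adjusted p = 0.033). None rose. Over all tested genes, 6.03% were called lower and 6.52% higher. Tnfrsf19 (-1.21, SE 0.44, edgeR adjusted p = 0.088) and Rgmb (-0.73, SE 0.32, edgeR adjusted p = 0.15) did not pass, although their groups did not overlap, as for 17% of all tested genes in that direction. Tnfrsf19 passed with no filter on low counts (-1.30, edgeR adjusted p = 0.017) and with DESeq2 (-1.21, adjusted p = 0.034). The count of 5 fell to 2, Ascl2 and Smoc2, when control replicate 2, KO day 3 replicate 2 or 3, or KO day 4 replicate 2 was left out, and to 3 without KO day 4 replicate 3. This comparison shares its KO day 4 libraries with the one against controls.

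Lgr5 served as a reference within each library, since a ratio of counts of a pair of genes does not depend on how libraries are scaled. At KO day 4, the ratio to Lgr5 was lower than in every control for 5 of the other 9 members and higher for 2. Over the 13404 other tested genes, the ratio to Lgr5 was below every control in 6.98% and above every control in 42.5%. The mean log2 ratio differed from controls by -1.0 for Tnfrsf19, -0.83 for Olfm4, -0.80 for Ascl2, -0.55 for Slc12a2 and -0.49 for Smoc2. It differed by 0.76 for Msi1 and 0.68 for Lrig1. The exact permutation test of 3 against 3 libraries, two-sided, gave p = 0.10 for each of these 7, the smallest it can give, and 0.129 after Benjamini-Hochberg adjustment over the 9 ratios. Without KO day 4 replicate 3 the value for Tnfrsf19 was -0.53, and without KO day 4 replicate 2 that for Smoc2 was -0.29. For Cdca7 (-0.50, exact p = 0.20) and Rgmb (-0.21, exact p = 0.60) the groups overlapped, and Rgmb's value turned to 0.07 without KO day 4 replicate 3 and to 0.01 without control replicate 1. At KO day 3 all 9 ratios overlapped with the controls, where the ratio of 8.3% of the other tested genes lay below and of 9.81% above every control.

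**Figure D3:**
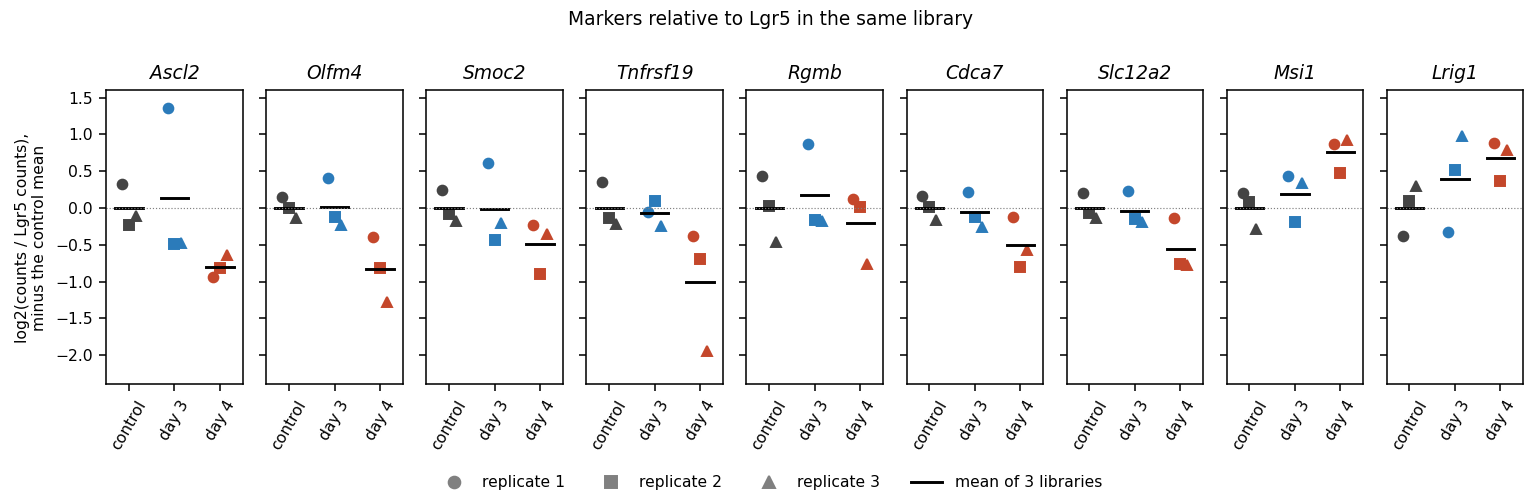
Log2 ratio of each marker's counts to Lgr5 counts in the same library, minus the control mean (y axis), with points for libraries and bars for means of 3. Ratios of Msi1 and Lrig1 lie above every control at KO day 4, and those of Ascl2, Olfm4, Smoc2, Tnfrsf19 and Slc12a2 below. KO day 3 overlaps the controls in all 9 panels.

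Across the 9 libraries, the levels of the 6 members called lower at KO day 4 went together, which the difference between groups contributes to. They were picked by that difference, so these correlations are not independent of it. Among these 6, Pearson's r of log2 CPM ran from 0.73 between Ascl2 and Tnfrsf19 to 0.99 between Cdca7 and Slc12a2 (median over 15 pairs 0.95), while Msi1 had 0.27 with Olfm4 and -0.24 with Ascl2. Of the members not called, Rgmb had 0.79 (Ascl2) to 0.93 (Tnfrsf19) with these 6, and Lgr5 had 0.52 (Ascl2) to 0.89 (Tnfrsf19). Msi1 and Lrig1 had 0.71 with each other. Within KO day 4, replicate 3 was the lowest library for all 10 members, replicate 1 the highest for 7 and replicate 2 for Lgr5, Ascl2 and Rgmb. Over 8033 genes with a mean of at least 5 CPM, the genes most like Lgr5 were Smad3 (r = 0.97), a transducer of TGF-beta signals, Paics, Lgals3bp, Tnk1 and Smo. Those most like Ascl2 were Ube2r2 (r = 0.99), Ap1s1, Marc2, Nt5c and Mpv17l2. Those most like Olfm4 were Tspan12 (r = 0.99), Mgme1, Slc12a2, Mrpl37 and Hsd17b4. Libraries share depth and group in these correlations, which are given as a description.

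A list of further crypt base stem cell markers held 30 genes, all tested. Of these, 14 were lower and 2 higher at KO day 4, against 11.5% and 11.1% of all tested genes. The median log2 change was -0.79, against -0.06 over all tested genes. The lower calls were 7, 6 and 8 without control replicate 1, control replicate 2 and KO day 4 replicate 2. They were 30 with scaling by library size alone, where 10769 of all 13405 tested genes were called lower. Besides Kcnq1, the vitamin D receptor gene Vdr fell from 139.8 ± 20.04 to 50.8 ± 5.09 CPM (log2 change -1.46, SE 0.21, edgeR adjusted p = 0.0011). The fibroblast growth factor receptor gene Fgfr4 fell from 19.0 ± 2.10 to 8.16 ± 1.47 CPM (-1.21, SE 0.22, edgeR adjusted p = 0.0040). Cdk6, a cell cycle kinase, rose from 32.0 ± 0.61 to 54.3 ± 8.46 CPM (0.76, SE 0.18, edgeR adjusted p = 0.012), and had -1.15 with scaling by library size alone. Its call was lost without control replicate 2 (edgeR adjusted p = 0.053). The other gene that rose, chosen here after its value was seen, was Phlda1 (0.88, edgeR adjusted p = 0.019), which had -0.98 with scaling by library size alone. Its call was lost without control replicate 2 or 3 or KO day 4 replicate 1 (edgeR adjusted p = 0.086, 0.071 and 0.069). Neither call held with nuclear genes scaled by library size alone (edgeR adjusted p = 0.31 for Cdk6 and 0.20 for Phlda1). None of the 30 was called at KO day 3, against 0.44% of all tested genes. There, 1 was lower with library size alone and 1 without KO day 3 replicate 1 and KO day 4 replicate 3 together. Between KO day 3 and KO day 4, 9 were lower and 1 higher, against 6.03% and 6.52% of all tested genes. Those lower were 3 without KO day 3 replicate 2 or KO day 4 replicate 2, 5 without control replicate 1 and 30 with library size alone, and the 1 higher call was lost in 8 of the 9 fits that left out 1 library, holding without KO day 3 replicate 1.

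**Figure D4:**
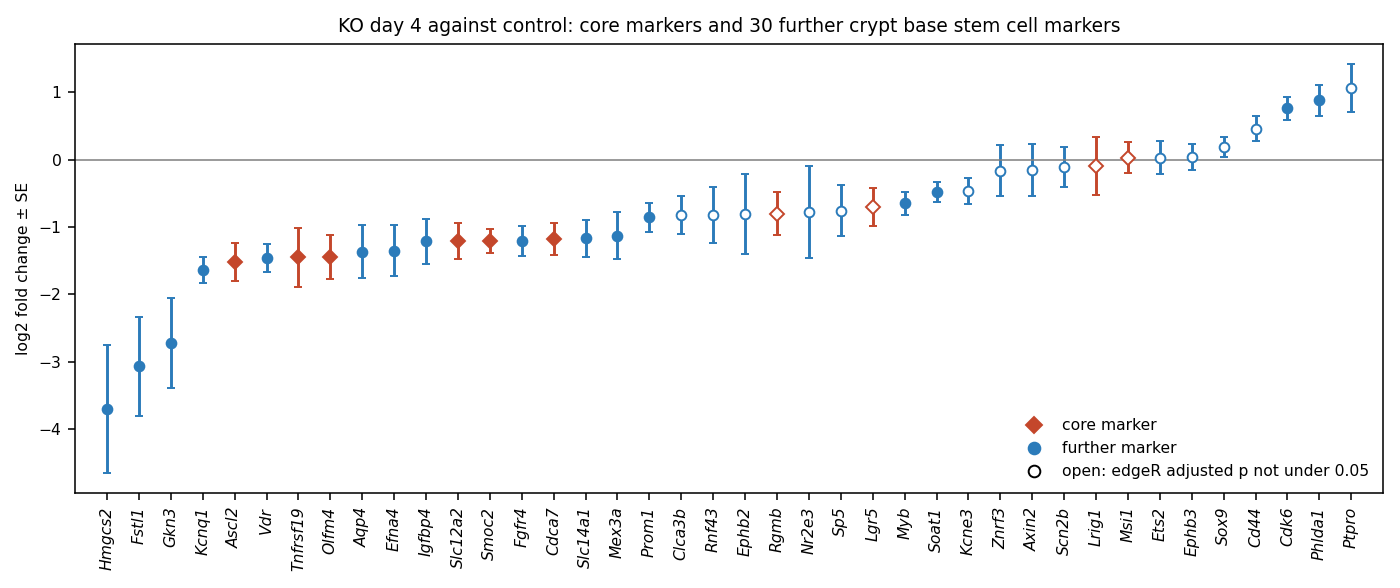
Log2 change at KO day 4 against control (y axis, bars of 1 SE) for the 10 core markers (diamonds) and 30 further crypt base stem cell markers (circles), ordered by value. Filled symbols passed edgeR's test at an adjusted p under 0.05: 6 core and 14 further markers lower, Cdk6 and Phlda1 higher, which turned to -1.15 and -0.98 with scaling by library size alone.

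Receptors and ubiquitin ligases of the R-spondin and Wnt receptor complex, in which LGR5 works, had 15 of 17 genes tested, with 2 lower and none higher at KO day 4 (median log2 change -0.37). The lower ones were the Frizzled receptors Fzd2 (8.43 ± 2.27 CPM in controls and 1.38 ± 1.35 at KO day 4, log2 change -2.48, SE 0.63, edgeR adjusted p = 0.017) and Fzd5 (28.3 ± 5.44 and 14.9 ± 4.56, -0.91, SE 0.26, edgeR adjusted p = 0.028). The call of Fzd2 was lost without control replicate 3 or KO day 4 replicate 2 (edgeR adjusted p = 0.064 and 0.054). That of Fzd5 was lost without control replicate 1 or 2 or KO day 4 replicate 2 or 3 (edgeR adjusted p = 0.093, 0.098, 0.089 and 0.072). Taking the 13 lists on these pathways and stem cell states together, 150 of 178 distinct genes were tested. At KO day 4, where 11.5% of all tested genes were called lower and 11.1% higher, 27 of these 150 were lower and 17 higher. Leaving out 1 library gave 12 (without control replicate 2) to 29 lower and 10 (without control replicate 2 or 3) to 20 higher, with 13 lower when control replicate 1 and 16 lower when KO day 4 replicate 2 was left out. Scaling by library size alone turned this split to 127 lower and 4 higher, and scaling by nuclear counts alone to 52 lower and 10 higher. Over all tested genes, these scalings called 10769 of 13405 and 4240 of 13393 lower. At KO day 3 none of the 150 was called in either direction by edgeR, against 0.44% of all tested genes. Between KO day 3 and KO day 4, 21 were lower and 9 higher, against 6.03% and 6.52% of all tested genes.

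Markers of other cell types also changed at KO day 4, and most of these lists rose while the members fell. Their summed level was taken as CPM of the counts of nuclear genes. Calls are set against 11.5% of all tested genes lower and 11.1% higher at KO day 4. The members together took 18960 to 22850 CPM in controls, 12810 to 18480 in the KO day 3 group and 2772 to 7633 in that of KO day 4. The 14 Paneth cell markers took 23300 to 57830 in controls, 37490 to 57010 in the KO day 3 group and 125200 to 172600 in that of KO day 4, and all 14 were called higher at KO day 4. The goblet cell markers took 1748 to 2255 in controls and 3442 to 5603 at KO day 4, with 7 of 10 called higher and 1 lower. The sum of the 12 enterocyte markers was lower, from 584 to 679 in controls to 294 to 334 at KO day 4. Of 11 tested, 3 were called lower, 1 higher and 7 not called. Enteroendocrine markers took 51.6 to 159 in controls and 412 to 633 at KO day 4 (9 of 12 called higher), and tuft cell markers 9.59 to 11.4 and 196 to 512 (8 of 9 tested called higher).

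Mast cell markers were near 0 in controls, with 7 to 9 of 10 at 0 counts in each and a sum of 0.10 to 0.45, and took 457, 872 and 1334 CPM in KO day 4 replicates 1, 2 and 3. At KO day 3 they took 206 in replicate 1, and 22.3 and 63.3 in the others. Of 8 tested genes 5 were called higher, against 0.142% of all tested genes. Other leukocyte markers took 1.6 to 5.19 in controls, with 6 to 8 of 10 at 0 counts in each, and 60.4 to 158 at KO day 4. Of these 10 genes 5 were tested, and all 5 were called higher at KO day 4, against 11.1% of all tested genes. Genes at 0 in controls could pass the filter on low counts only through KO libraries, where they are high. Their calls in both lists could thus hardly go lower. The T cell gene Cd3e and the B cell gene Cd79a were at 0 in all 3 KO day 4 libraries. Stromal and endothelial markers took 0.29 to 2.63 in controls and 12.0 to 29.5 at KO day 4, and red blood cell genes were at 0 at KO day 4. Within the KO day 4 group, replicate 3 had the lowest level of all 10 members. It also had the highest sums of Paneth, goblet, tuft, enteroendocrine, mast cell, other leukocyte and stromal markers. The same held for enterocyte markers (334, against 325 and 294 in replicates 1 and 2), whose sum was below the controls. The part of these other cells in the members' fall was not tested.

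**Figure D5:**
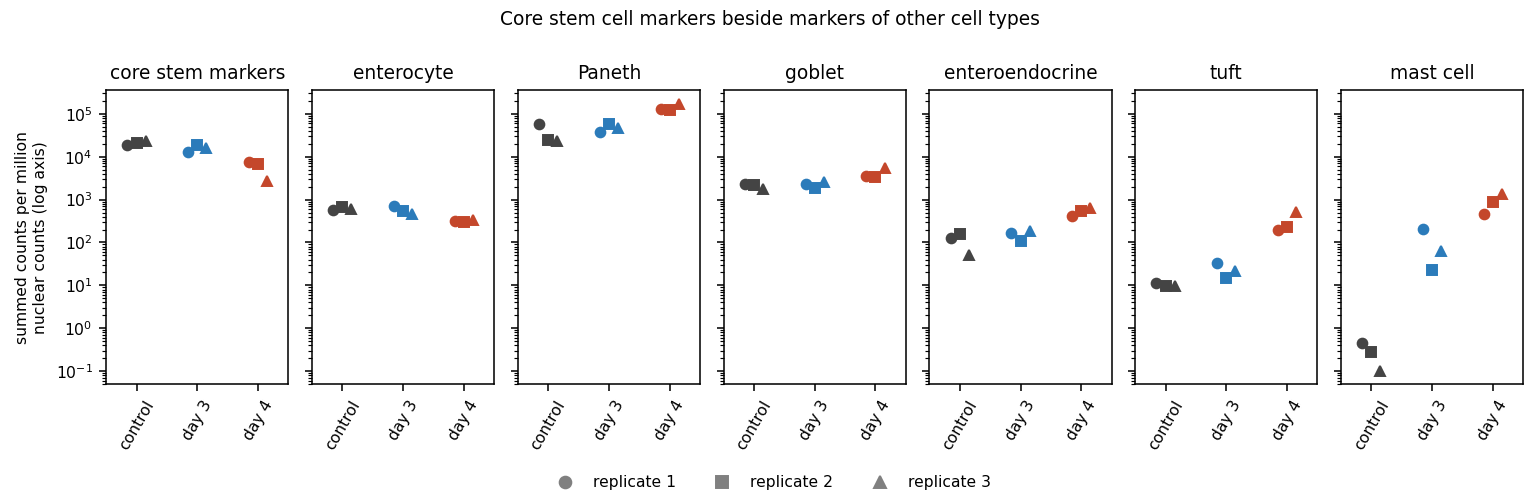
Summed level, in CPM of nuclear counts (log axis), of the 10 core stem cell markers and of marker lists of 6 other cell types, in each library. At KO day 4 the core markers lie between 2772 and 7633, below every control, and the sums of Paneth, goblet, enteroendocrine, tuft and mast cell markers lie above every control.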

How the data were processed

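The values are counts of reads per gene (Ensembl identifiers), which the authors deposited as a single table of the 9 libraries, neither pooled nor normalized. HISAT2 2.0.4 and the build GRCm38 were used, per the submitters' processing notes. How reads were counted, whether by strand, and with which annotation is not given in the sources used here, so reads of overlapping genes cannot be told apart. Of the 57180 identifiers, 51933 were named through GENCODE M21, and 6 trailing columns were empty.

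The members and all gene lists were chosen with earlier results of these data known. Counts were tested with edgeR 4.0.16 in R 4.3.3, using filterByExpr (10 counts in a library, 15 in all), TMM scaling and the quasi-likelihood F-test over all 9 libraries. Benjamini-Hochberg adjustment covered 13405 genes, with a threshold of 0.05. Fold changes are given on the log2 scale, each with its standard error (SE). Levels are CPM, as mean ± SD. Ratios to Lgr5 had 0.5 added to each count. The 95% intervals are 1.96 SE either way, a normal approximation narrower than the quasi-likelihood F-test implies with so few libraries. For Kansl1 between the KO times such an interval left out 0 (0.07 to 1.91) at an unadjusted p of 0.057 by edgeR.

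Named are the 10 members, Kansl1 and Mki67, up to 4 called genes with the smallest adjusted p per list for KO day 4 against control (or, with none, the 2 of highest mean CPM), and the 5 genes most correlated with Lgr5, Ascl2 and Olfm4. Not every gene the rule selects is reported here. Hells and Phlda1 are named in addition, chosen after their values were seen. Replicates of a group differed by more than sampling noise (chi-square over degrees of freedom from 12.8 to 89.2). Alternatives were RLE size factors, library size alone, nuclear genes only with TMM, no filter, a mean of at least 5 CPM, DESeq2 1.42.0, voom with quality weights in limma 3.58.1, only the 2 groups compared, a replicate block, leaving out each library, and leaving out KO day 3 replicate 1 with KO day 4 replicate 3. Nuclear genes only without TMM was added after seeing the data.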

Additional observations from a re-analysis of the deposited data

Results flagged for a closer look

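For 5 members the difference from control itself differed between KO day 3 and KO day 4, by the test of KO day 4 against KO day 3 in edgeR, in which the controls cancel. The log2 effect at KO day 4 minus that at KO day 3 was -1.48 for Ascl2 (edgeR adjusted p = 0.0094, all 3 KO day 4 libraries below all 3 of KO day 3). For Olfm4 it was -1.24 (edgeR adjusted p = 0.032), for Slc12a2 -0.96 (edgeR adjusted p = 0.039), for Smoc2 -0.96 (edgeR adjusted p = 0.0084) and for Cdca7 -0.91 (edgeR adjusted p = 0.033), with the KO day 4 libraries below all of KO day 3 for each. In this comparison 6.03% of all tested genes were called lower. Under the 20 alternatives, Ascl2 and Smoc2 were called in all 20, Olfm4 in 15, Cdca7 in 13 and Slc12a2 in 12.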

How the results depend on the processing

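The 6 members that fell at KO day 4 against control included 5 (Ascl2, Olfm4, Smoc2, Cdca7 and Slc12a2) called in that comparison under all 20 alternatives. No member was called at KO day 3 against control under any of the alternatives. Scaling by library size alone moved the median log2 change of all genes to -0.39 for KO day 3 against control, -1.95 for KO day 4 against control and -1.54 between the KO times, and nuclear genes with library size alone to -0.24, -0.55 and -0.30. With library size alone, 10769 of all 13405 tested genes were called lower at KO day 4 and 9319 between the KO times. Members called lower were 10 at KO day 4 and 10 between the KO times with library size alone, and 2 between the KO times with only the 2 groups compared. They were 8 at KO day 4 with no filter and with nuclear genes and library size alone, and between the KO times 7 with nuclear genes and library size alone and 6 with no filter, with DESeq2 and without the pair of libraries that stood apart. With 1 library left out, they ranged from 5 to 7 at KO day 4 and from 2 to 5 between the KO times. Over the 13 lists, leaving out libraries gave 0 lower (1 without the pair of libraries that stood apart) and 0 to 4 higher at KO day 3, 12 to 30 lower and 10 to 25 higher at KO day 4 (29 and 20 at most with 1 library left out), and 6 to 24 lower and 1 to 9 higher between the KO times. At KO day 3 the lists had 2 lower and 1 higher with library size alone, 1 lower and 5 higher with DESeq2, 3 lower and 9 higher with limma, and 1 higher each with nuclear genes and library size alone, with no filter and with only the 2 groups compared. At KO day 4 they had 127 lower and 4 higher with library size alone, and 52 lower and 10 higher with nuclear genes and library size alone. Between the KO times they had 119 lower and 3 higher with library size alone, 43 lower with nuclear genes and library size alone, 32 lower with no filter and with DESeq2, and 10 lower and 5 higher with only the 2 groups compared. The further stem cell markers had 4 higher at KO day 4 with DESeq2, and between the KO times 16 lower with nuclear genes and library size alone, 14 with no filter and with DESeq2 and 5 with only the 2 groups compared. The 1 higher between the KO times was lost with either library size scaling, with no filter, with only the 2 groups compared and without that pair. The cause of these differences was not tested.

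Some values near 0 changed sign. For Msi1 the log2 change at KO day 3 was 0.00013 with DESeq2, 0.05 (0.055) with limma and 0.0039 with only the 2 groups compared. At KO day 4 Msi1 had -1.85 with library size alone, -0.47 with nuclear genes and library size alone and -0.07 (-0.069) with no filter, and between the KO times -1.45, -0.24 and -0.04 (-0.040). Lrig1 had -0.09 (-0.094) at KO day 3 with library size alone, and at KO day 4 0.0094 with limma and 0.05 (0.054) with the replicate block. With library size alone, KO day 4 values turned to -1.50 for Mki67, -1.15 for Cdk6, -0.98 for Phlda1, -1.18 for Bmp7, -1.15 for Dnmt3a, -1.63 for Msi2, -1.55 for Numb, -1.0 for Wnk1 and -0.90 for Olfm1, and Kansl1 to -0.57 between the KO times. With nuclear genes and library size alone, Mki67 had -0.13, Msi2 -0.25 and Numb -0.16. Leaving out libraries gave ranges at KO day 3 of -0.37 to 0.06 (0.059) for Lgr5, -0.42 to 0.15 for Ascl2, -0.54 to 0.0046 for Tnfrsf19, -0.20 to 0.06 (0.064) for Rgmb, -0.21 to 0.14 for Msi1 and -0.02 (-0.016) to 0.75 for Lrig1. At KO day 4 the ranges were -0.10 (-0.096) to 0.16 for Msi1 and -0.34 to 0.15 for Lrig1, and between the KO times -0.12 to 0.23 for Msi1 and -0.30 to 0.04 (0.041) for Mki67. Deviations of same-numbered libraries from their group means correlated at -0.05 (-0.054) to 0.13, and those of differently numbered libraries at -0.087 to 0.085. With 3 libraries per group, such values cannot decide whether replicate numbers pair the libraries. With the replicate block the members called lower at KO day 4 were 7, Rgmb (-0.89, edgeR adjusted p = 0.041) being added, and 5 between the KO times. KO day 4 libraries had the fewest nuclear counts, and 15 counts of Tnfrsf19 in replicate 3 were the fewest of any member.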

Other observations

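None of the 16 proliferation markers was called at KO day 3, where 0.44% of all tested genes were called in either direction. Their median log2 change at KO day 3 was 0.40, against -0.02 over all tested genes. Of the 16, 6 had an unadjusted p under 0.05 by edgeR, a count not set against a share over all tested genes. Mki67, a marker of cycling cells, had 24.0, 22.9 and 22.9 CPM in the control libraries, 28.9, 38.5 and 29.3 in those of KO day 3 and 37.2, 29.4 and 23.1 in those of KO day 4. Its KO day 3 libraries were all above the controls, as for 12.1% of all tested genes in that direction. Neither KO time passed the test for Mki67 (log2 change 0.47, SE 0.21, edgeR adjusted p = 0.30, and 0.37, SE 0.21, edgeR adjusted p = 0.23, the latter turning to -1.50 with scaling by library size alone). At KO day 4, where 11.5% of all tested genes were called lower and 11.1% higher, 2 of the 16 proliferation genes, all tested, were lower and none higher. These were Mcm6, of the replicative helicase (184 ± 16.9 CPM in controls and 131 ± 12.6 at KO day 4, log2 change -0.50, SE 0.14, edgeR adjusted p = 0.028), and Ccnb2, a mitotic cyclin (-0.89, SE 0.28, edgeR adjusted p = 0.040). Leaving out 1 library ended the call of Mcm6 without any control, without replicate 2 of either KO time and without KO day 4 replicate 3 (edgeR adjusted p from 0.05 to 0.10), and that of Ccnb2 without any control and without KO day 3 replicate 2 or 3 (0.05 to 0.13 by edgeR, adjusted).

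Genes of reserve or regenerating cell states had 10 of 11 tested, with 1 lower and 2 higher at KO day 4. The shares of all tested genes were 11.5% lower and 11.1% higher. Ly6a, known as Sca-1 and high in regenerating epithelium, had 0.47 ± 0.45 CPM in the control group, 5.22 ± 3.16 in that of KO day 3 and 26.8 ± 14.9 in that of KO day 4 (log2 change 5.77 at day 4, SE 0.75, edgeR adjusted p = 7.6e-04). Anxa1 was at 0.11 ± 0.14 CPM in controls and 7.03 ± 4.77 at KO day 4 (log2 change 5.94, SE 1.11, edgeR adjusted p = 0.0042). Mex3a, an RNA-binding protein of slow-cycling Lgr5+ cells, was lower (7.82 ± 0.86 and 3.48 ± 1.51 CPM, log2 change -1.13, SE 0.35, edgeR adjusted p = 0.040), a call lost in 6 of the 9 fits that left out 1 library (edgeR adjusted p from 0.055 to 0.12) and kept without replicate 1 of either KO time and without KO day 4 replicate 3.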
